A study of Mus musculus with 12 samples.

Results

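Cells make cholesterol from acetyl-CoA in a chain of enzyme steps whose genes are switched on together by the transcription factor SREBP-2. RNA of 28 genes of this chain and of its control was followed in the spleen and the axillary lymph node of mice, out of 23284 gene symbols in each of the deposited tables. The genes were chosen by name, with earlier results of these data known, and fall into 4 roles. The mevalonate pathway has 5 (Acat2, Hmgcs1, Mvk, Pmvk and Mvd), the steps from isoprenoid units to squalene have 4 (Idi1, Fdps, Ggps1 and Fdft1), the steps from squalene to cholesterol have 12, and the control of SREBP-2 with sterol transport has 7. The 12 are Sqle, Lss, Cyp51, Tm7sf2, Lbr, Sc4mol, Nsdhl, Hsd17b7, 0610007P14Rik, Ebp, Sc5d and Dhcr7, and the 7 are Srebf2, Scap, Insig1, Insig2, Mbtps1, Mbtps2 and Stard4. Sc4mol is the older symbol of Msmo1 and 0610007P14Rik that of Erg28. All 28 symbols were in both tables, and all 28 passed the filter on low counts in every fit used here.

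As background, SREBP-2 is made as a membrane protein of the endoplasmic reticulum, where it is bound by its escort Scap. When the membrane is rich in sterol, Insig proteins hold Scap back; when sterol falls, Scap carries SREBP-2 to the Golgi, where the proteases encoded by Mbtps1 and Mbtps2 cut it. The freed fragment enters the nucleus and binds sterol regulatory elements in the promoters of the synthesis genes, and Insig1 is itself a target. Macrophages that take up lipoprotein cholesterol and dividing lymphocytes that need new membrane are both known to alter the activity of this pathway, in opposite directions.

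The study compared mice that lack both apoE and apoA-I (DKO) with DKO mice that overexpress human apoA-I (DKO/hA-I), all 30 weeks old and on normal laboratory diet. ApoE and apoA-I are the protein components by which lipoproteins are cleared and by which cells release cholesterol, so the comparison asks what apoA-I alters in animals without apoE. Each genotype had n = 3 libraries of spleen and n = 3 of axillary lymph node, made from poly(A) RNA, and the p-values given here measure only the spread among those libraries. Both genotypes carry the apoE and apoA-I deficiencies. The sources used here do not give the promoter that drives human apoA-I or the way the deficiencies were made, and no apoE-competent mouse was part of the comparison.

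Total counts ran from 5911835 to 11950825 per library, lowest in DKO lymph node replicate 2 and highest in DKO lymph node replicate 3. Levels are given as CPM, counts scaled to library size with 1 set of TMM factors for the 12 libraries, and a floor of 3 counts lay between 0.251 and 0.507 CPM; this covers counting error only. The tissue labels matched their defining genes: the spleen factors Tlx1 and Nkx2-3 had 0 counts in every node, and Glycam1 of node venules had at least 521 counts in every node and at most 3 in every spleen. Apoa1 (0 to 13 counts per library) and Apoe are deficient in both genotypes and check no label. The pseudogene Rpl31-ps12 separated the genotypes in both tissues but in opposite directions, at 90.1, 58.5 and 65.7 CPM in the DKO nodes against 0.0929, 0.0903 and 0.107 in the DKO/hA-I nodes, and at 0.221, 0.0977 and 0.200 in the spleens labelled DKO against 52.7, 74.6 and 68 in those labelled DKO/hA-I. Genotype directions are therefore those of the labels, here and below. Whether the genotype labels of 1 tissue are exchanged was not tested. An exchange would turn the sign of every genotype difference in that tissue and alter every comparison across tissues except that of the mean over both genotypes, so values with the spleen labels exchanged are given beside those comparisons. In the node, all DKO libraries share 1 number in their sample codes and the DKO/hA-I libraries carry others, so that number and the genotype cannot be told apart.

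RefSeq promoter windows (build GRCm38.p6, 250 bases before to 50 after the start) were at hand for 24 of the 28 genes, in 30 windows. The 250 bases before the start are printed 5′ to 3′ along the gene for the 4 genes that passed the genotype test in the node. Capitals mark 4 motifs on either strand: the sterol regulatory element TCACCCCAC, its looser form TCACNCCAC, which includes it, the CCAAT box bound by NF-Y, and the GC box GGGCGG bound by Sp1. For Pmvk, which has several windows, the first is shown. The windows are chr13:119690101-119690350 on the plus strand for Hmgcs1, chr17:12960726-12960975 on the minus strand for Acat2, chr3:89454291-89454540 on the plus strand for Pmvk and chr5:28071162-28071411 on the plus strand for Insig1.
Hmgcs1: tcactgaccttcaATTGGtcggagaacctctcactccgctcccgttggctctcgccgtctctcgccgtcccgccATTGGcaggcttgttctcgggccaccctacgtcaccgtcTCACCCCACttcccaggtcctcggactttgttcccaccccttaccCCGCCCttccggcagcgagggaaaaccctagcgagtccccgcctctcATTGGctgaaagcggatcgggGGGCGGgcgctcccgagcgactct
Acat2: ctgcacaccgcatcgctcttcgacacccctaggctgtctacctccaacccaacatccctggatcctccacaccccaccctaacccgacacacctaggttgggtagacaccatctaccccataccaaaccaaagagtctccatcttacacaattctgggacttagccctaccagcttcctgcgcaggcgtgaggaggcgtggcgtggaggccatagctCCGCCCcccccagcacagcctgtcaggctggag
Pmvk: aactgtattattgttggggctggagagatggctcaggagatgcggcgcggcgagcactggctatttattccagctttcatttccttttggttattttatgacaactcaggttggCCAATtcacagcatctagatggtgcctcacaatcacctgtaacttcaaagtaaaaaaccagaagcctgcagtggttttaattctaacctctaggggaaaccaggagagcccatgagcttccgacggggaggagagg
Insig1: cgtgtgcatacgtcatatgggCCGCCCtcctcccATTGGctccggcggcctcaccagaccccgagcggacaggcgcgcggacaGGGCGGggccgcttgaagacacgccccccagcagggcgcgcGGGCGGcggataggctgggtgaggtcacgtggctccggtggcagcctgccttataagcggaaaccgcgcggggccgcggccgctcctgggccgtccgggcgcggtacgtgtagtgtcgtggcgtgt

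In the Hmgcs1 window the sterol regulatory element lay on the plus strand with its first base 137 bases before the start, between a CCAAT box 176 bases before it and a GC box 92 bases before it, both on the minus strand. Hmgcs1 was the only 1 of the 24 genes with TCACCCCAC or with TCACNCCAC in its windows, motifs found in 0.614% and 1.44% of the 27025 genes that have a window. A CCAAT box was present for 19 of the 24 genes against 41.1% of all genes, and GGGCGG for 21 of the 24 against 38.2%. Among the printed windows, Insig1 held 3 GC boxes and 1 CCAAT box, Acat2 1 GC box and Pmvk 1 CCAAT box. These matches describe letters only, and a window without a motif says nothing about the factor.

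Per exon length, the genes spanned a wide range of levels. As RPKM (CPM per exon length, mean ± SD over the 12 libraries), Lbr was highest at 43.3 ± 10.2, followed by Srebf2 at 25.4 ± 4.69 and Insig1 at 16.6 ± 8.02. Ebp (13.9 ± 2.12), Acat2 (13.3 ± 5.02), Scap (12.9 ± 1.82), Mbtps1 (12.8 ± 0.941), Pmvk (12.4 ± 2.64) and Hmgcs1 (11.5 ± 2.95) came next and did not differ from each other beyond their SDs. The lowest were Tm7sf2 at 1.05 ± 0.165, Lss at 1.51 ± 0.316 and Hsd17b7 at 1.79 ± 0.476 RPKM. The length used is the union of all annotated exons, which can exceed that of the RNA made, so these ranks depend on the annotation. Lss, with 10787 such bases, averaged 16.2 CPM in the nodes, and Nsdhl, with 2853, averaged 18.4. Lbr and Tm7sf2 both encode sterol C14 reductases, and Lbr is also a receptor for the nuclear lamina in the inner nuclear membrane. On the RPKM scale, the RNA for this reductase step was therefore mostly that of Lbr. Of the enzymes after squalene, Sqle, the epoxidase that is a well-known control point of the pathway, stood at only 2.75 ± 1.39 RPKM.

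**Figure D1:**
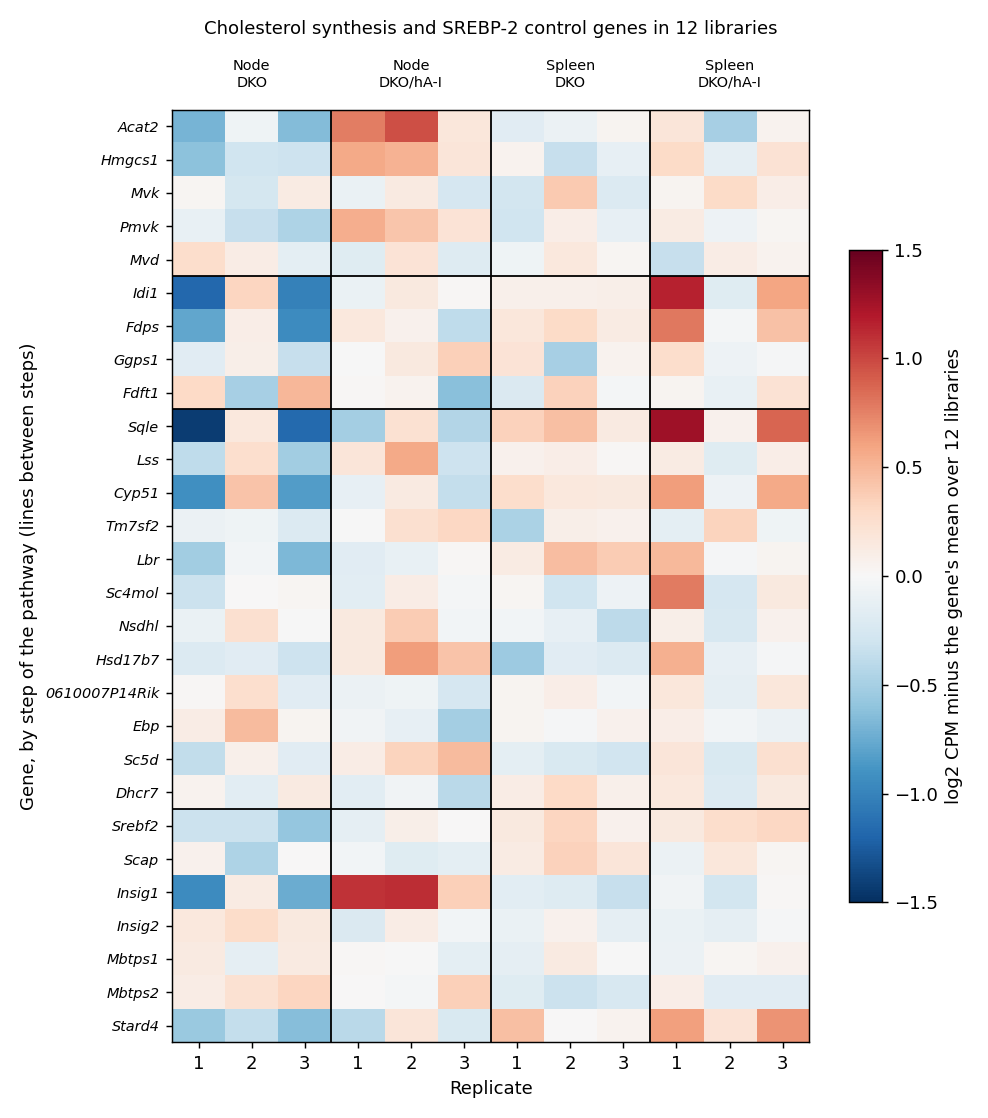
Level of the 28 genes in each of the 12 libraries, as log2 CPM minus the gene's mean over the 12 libraries, with genes in rows by step of the pathway and libraries in columns by group and replicate. Acat2, Hmgcs1, Pmvk and Insig1 are high in the DKO/hA-I nodes, and Idi1, Fdps, Sqle and Cyp51 are low in DKO node replicates 1 and 3 and high in DKO/hA-I spleen replicate 1.

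In the axillary lymph node, 4 of the 28 genes differed between the genotypes, and all 4 were lower in DKO than in DKO/hA-I: Acat2, Hmgcs1 and Pmvk of the mevalonate pathway, and Insig1. Their folds lay between 1.60 and 2.52. A gene was called at a Benjamini-Hochberg adjusted p under 0.05 in edgeR's quasi-likelihood test over all 14012 genes tested, of which 6.87% were called and 2.92% were called lower in DKO. None of the isoprenoid or the post-squalene enzymes was called. Over the 28 genes the median log2 fold change, DKO minus DKO/hA-I, was -0.29 against 0.01 over all genes tested, with 10 genes above 0 and 18 below. The 3 DKO values did not overlap the 3 DKO/hA-I values for 10 of the 28 genes, against 30.5% of all genes tested. RNA of a whole node was measured, so fewer cells of a type and less RNA per cell cannot be told apart.

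Hmgcs1 encodes the cytosolic HMG-CoA synthase that commits acetoacetyl-CoA to the pathway. Its level was 33.5, 41.6 and 41.3 CPM in DKO node replicates 1, 2 and 3 (38.8 ± 4.57, SD, n = 3) and 76.3, 73.8 and 58.4 in the DKO/hA-I nodes (69.5 ± 9.73). Every DKO node lay below every DKO/hA-I node, and the log2 fold change was -0.83 ± 0.15 (SE; edgeR adjusted p = 0.0257). Acat2, the cytosolic thiolase that joins acetyl-CoA units in the step before, stood at 19.6, 30.5 and 20.2 CPM in DKO nodes (23.4 ± 6.13, SD, n = 3) and at 54.1, 62.1 and 35.8 in DKO/hA-I nodes (50.7 ± 13.5). The groups did not overlap, although DKO replicate 2 at 30.5 and DKO/hA-I replicate 3 at 35.8 came close, and the log2 fold change was -1.11 ± 0.25 (edgeR adjusted p = 0.0435). Pmvk, the kinase that makes mevalonate diphosphate, measured 19.2, 16.4 and 15.1 CPM in DKO nodes and 30.3, 27.7 and 24.1 in DKO/hA-I nodes, again without overlap (log2 fold change -0.68 ± 0.16, edgeR adjusted p = 0.0479).

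The remaining mevalonate enzymes did not follow these 3. Mvk, the kinase before Pmvk, stood at 9.71, 7.92 and 10.3 CPM in DKO nodes and 8.82, 10.4 and 7.95 in DKO/hA-I nodes. Its log2 fold change of 0.06 ± 0.20 had an approximate 95% interval of -0.33 to 0.45. Mvd, the decarboxylase after Pmvk, had a log2 fold change of 0.14 ± 0.19 with an interval of -0.22 to 0.51. Groups of both genes overlapped, and the intervals leave out changes as large as that of Acat2 or Hmgcs1 in the same direction.

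Insig1, which retains the Scap complex and is a standard readout of SREBP-2 activity, showed the largest difference of the 28 genes. It measured 24.4, 51.1 and 28 CPM in DKO nodes (34.5 ± 14.5, SD, n = 3) and 99.5, 101 and 60.1 in DKO/hA-I nodes (86.9 ± 23.2). DKO replicate 2 at 51.1 and DKO/hA-I replicate 3 at 60.1 lay closest, and the groups did not overlap. The log2 fold change was -1.33 ± 0.32, 2.52-fold lower in DKO, with an edgeR adjusted p of 0.0499, just inside the threshold. Its paralogue Insig2, which does not depend on SREBP-2 in the same way, stood at 39, 42.5 and 38.7 CPM in DKO nodes and 30.2, 38 and 34.2 in DKO/hA-I nodes, higher in each DKO library, but was not called (log2 fold change 0.24 ± 0.14, edgeR adjusted p = 0.315).

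Srebf2, the gene of SREBP-2 itself, measured 144, 144 and 120.4 CPM in DKO nodes and 163, 191 and 181 in DKO/hA-I nodes. All DKO values lay below all DKO/hA-I values, yet the gene was not called (log2 fold change -0.38 ± 0.13, edgeR adjusted p = 0.124). In a fit of all 12 libraries it was called (-0.39, edgeR adjusted p = 0.0368), 1 of 5 of the 28 called there against 15.4% of all genes tested. Scap, the escort, had a log2 fold change of 0.02 ± 0.16, and the proteases Mbtps1 and Mbtps2 had 0.11 ± 0.12 and 0.11 ± 0.15, with groups that overlapped. Stard4, which carries cholesterol between membranes and is known as an SREBP-2 target, stood at 14.8, 17 and 14 CPM in DKO nodes and 16.4, 24.7 and 18.6 in DKO/hA-I nodes (log2 fold change -0.38 ± 0.20, edgeR adjusted p = 0.285).

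**Figure D2:**
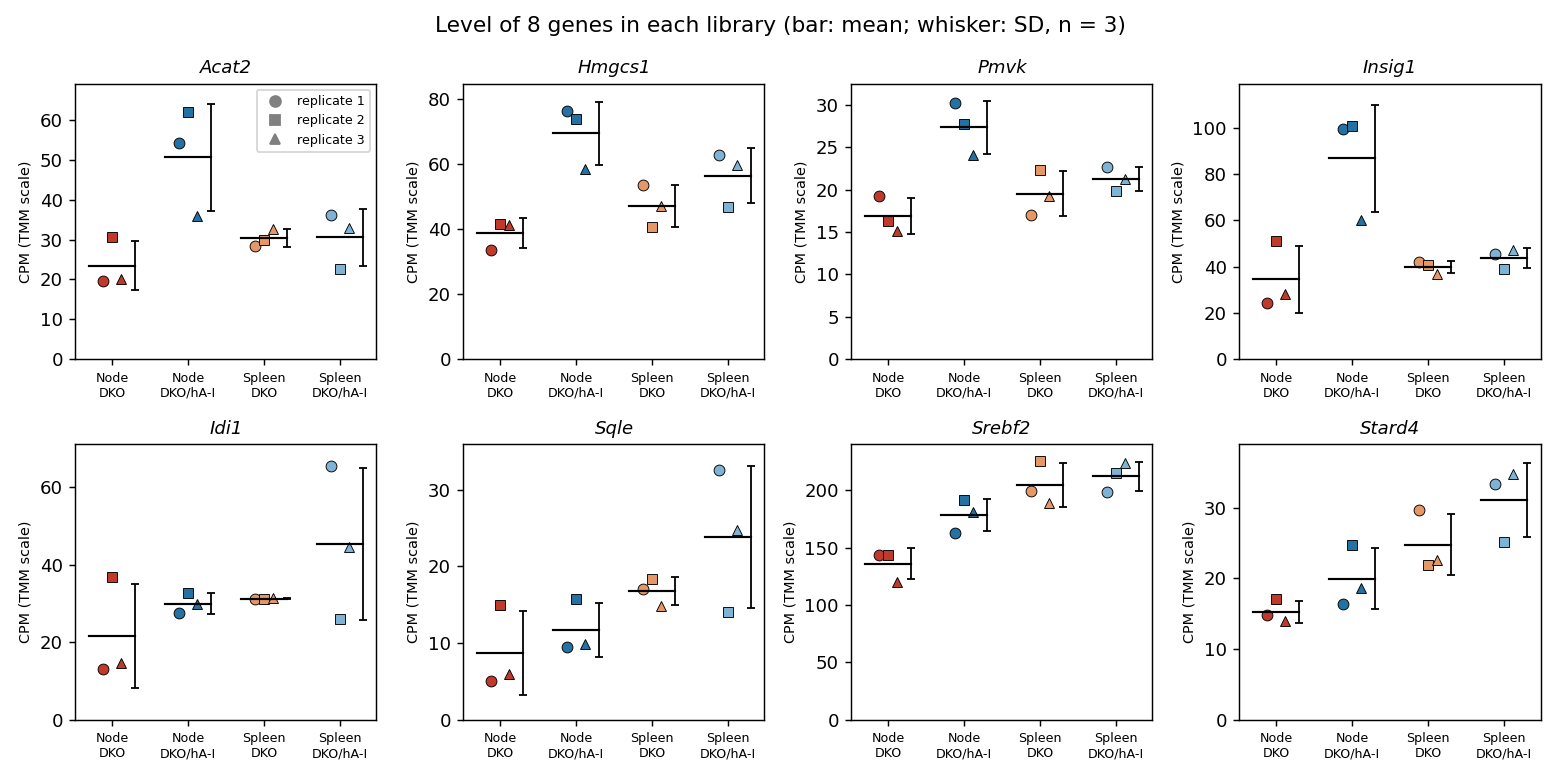
CPM of 8 genes in each library by group, with points as replicates, a bar at the group mean and a whisker of 1 SD (n = 3). Acat2, Hmgcs1, Pmvk and Insig1 are highest in the DKO/hA-I nodes, and Idi1 and Sqle show DKO node replicate 2 far above the others of its group. In the DKO/hA-I spleens, Idi1 and Sqle are highest in replicate 1 and lowest in replicate 2, with replicate 3 between.

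Between isoprenoid units and squalene, no gene was called, and 1 DKO node stood apart. Idi1, the isomerase of the 5-carbon units and a known SREBP-2 target, measured 13, 36.9 and 14.6 CPM in DKO nodes against 27.4, 32.7 and 29.8 in DKO/hA-I nodes. Replicates 1 and 3 of DKO lay far below every DKO/hA-I node, while replicate 2 lay above all of them. Fdps, farnesyl diphosphate synthase, measured 13.6, 24.9 and 12.2 CPM against 26, 24.5 and 17.9, with DKO replicates 1 and 3 below all DKO/hA-I nodes and replicate 2 among them. Ggps1, which draws farnesyl diphosphate off towards protein prenylation, stood at 34.2, 40.6 and 30.3 and 38.2, 42.5 and 49.1 CPM (log2 fold change -0.30 ± 0.16).

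Fdft1, squalene synthase, went the other way from its neighbours, at 46.6, 26.8 and 53.3 CPM in DKO nodes and 38.3, 39.2 and 24.4 in DKO/hA-I nodes (log2 fold change 0.33 ± 0.28, not called). Its exons share 774 bases, 18.3% of their length, with Ctsb on the opposite strand, and the sources used here do not give the strand setting of the counting. Ctsb, a lysosomal protease, was far more abundant, at 4291, 2504 and 5580.3 CPM in DKO nodes and 1821, 1353 and 1166 in DKO/hA-I nodes, and its library order was that of Fdft1 within the DKO nodes but not within the DKO/hA-I nodes. Reads of the pair cannot be told apart without strand, so the Fdft1 level is uncertain. Among the called genes, Hmgcs1 shares 557 bases, 12.1% of its exons, with the antisense gene Gm48342, which has no row of its own in the tables. A shared stretch also touches Mbtps2 (2867 bases, 28.4% of its exons, with Yy2 on the same strand) and Fdps (1124 bases, 26.7%, with the predicted gene Gm43738), as well as Scap (985 bases, 13.2%, opposite 5830462I19Rik) and Tm7sf2 (532 bases, 12.1%, with Vps51 on the same strand).

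After squalene, Sqle measured 5.04, 15 and 6.00 CPM in DKO nodes and 9.47, 15.8 and 9.89 in DKO/hA-I nodes, and Cyp51, the lanosterol demethylase, measured 14.6, 37.3 and 15.4 and 25.3, 30.4 and 21.6. In both, replicates 1 and 3 of DKO lay below all DKO/hA-I nodes and replicate 2 among or above them. Lbr stood at 140.2, 195 and 126 CPM in DKO nodes and 178, 186 and 202 in DKO/hA-I nodes with the same outlying replicate. Hsd17b7, a 3-ketosteroid reductase, was low in every library at 7.73, 7.92 and 7.14 CPM in DKO nodes against 9.84, 13.7 and 11.9, without overlap (log2 fold change -0.63 ± 0.20, edgeR adjusted p = 0.0977).

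Sc5d, the C5 desaturase, also had lower values in each DKO node, 16, 21.9 and 18.4 CPM against 22.4, 26.1 and 28.8 (log2 fold change -0.45 ± 0.18, edgeR adjusted p = 0.166). Ebp, the sterol isomerase that precedes it, had higher ones, 34.2, 44 and 32.6 against 30.5, 29.2 and 22.4 CPM (log2 fold change 0.44 ± 0.18, edgeR adjusted p = 0.176). Adjacent enzymes thus had opposite signs, and neither was called. The other 6 genes of these steps, Lss, Tm7sf2, Sc4mol, Nsdhl, 0610007P14Rik and Dhcr7, had log2 fold changes from -0.37 (Lss, the cyclase) to 0.22 (Dhcr7, the last reductase), all not called.

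DKO node replicate 2 had the highest value of its group for 18 of the 28 genes, for 15 of the 21 enzymes and their scaffold, and for 10 of the 12 genes after squalene, against 37.7% of all genes tested. It was also the shallowest library, and it differed in cell markers. Its summed level of 7 proliferation genes (Mki67, Top2a and others) was 1622 CPM against 426 and 542 in the other DKO nodes, and that of 7 plasma cell genes was 3296 against 568 and 742. Its 8 lipid-laden macrophage genes (Trem2, Gpnmb, Spp1 and others) summed to 1526 CPM against 5247 and 7120. Without this library, calls rose over the whole table, to 15.7% of all genes tested, with 4.83% lower in DKO. Of the 28 genes 9 were then called, all lower in DKO: the 4 above and Idi1 (log2 fold change -1.11, edgeR adjusted p = 0.00242), Sqle (-1.08, 0.0343), Fdps (-0.82, 0.0239), Cyp51 (-0.77, 0.0215) and Lbr (-0.50, 0.0263). The part of the cell markers in these levels was not tested.

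The 4 calls did not hold for every set of 5 libraries. Leaving out DKO replicate 1, DKO replicate 3, DKO/hA-I replicate 1 or DKO/hA-I replicate 2 left none of the 28 genes called, against 2.99%, 1.01%, 1.04% and 0.808% of all genes tested, with log2 fold changes from -1.07 to -0.94 for Acat2, -0.89 to -0.76 for Hmgcs1, -0.82 to -0.61 for Pmvk and -1.23 to -1.16 for Insig1 in these fits. Their edgeR adjusted p-values then ran from 0.0643 to 0.170. Without DKO/hA-I replicate 3, Acat2 and Hmgcs1 were called, 2 of the 28 against 3.03% of all genes tested. The authors' deposited table calls 2 of the 28 genes in the node, Insig1 with a q-value of 0.00222 and Acat2 with 0.0348, among 784 genes called in all.

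Cell markers moved with the genotype in the node. The summed level of 9 adipocyte genes (Adipoq, Plin1, Cidec and others) was 115, 143 and 154 CPM in DKO nodes and 1477, 2001 and 647 in DKO/hA-I nodes. Of the 9, 8 were called lower in DKO, against 2.92% of all genes tested. No adipocyte marker was at 0 in the nodes as a group. The 8 lipid-laden macrophage genes summed to 5247, 1526 and 7119.8 CPM in DKO nodes and 848, 881 and 582 in DKO/hA-I nodes. Of these 8, 7 were called higher in DKO, against 553 of 14012 genes tested. These lists, like the other marker lists, were chosen with earlier results of these data known. Their counts of calls are therefore description and no independent support for a change in these cells. Among the DKO/hA-I nodes, replicate 3 had the lowest adipocyte sum and the lowest level of all 5 mevalonate genes and of Insig1, though for Mvd its value and that of replicate 1 round to the same CPM. This replicate was the lowest for 15 of the 28 genes, against 39.2% of all genes tested. It was the lowest for 6 of the 12 genes after squalene and 2 of the 7 genes of SREBP-2 control and sterol transport. The part of these markers in the levels of the 4 called genes was not tested.

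**Figure D3:**
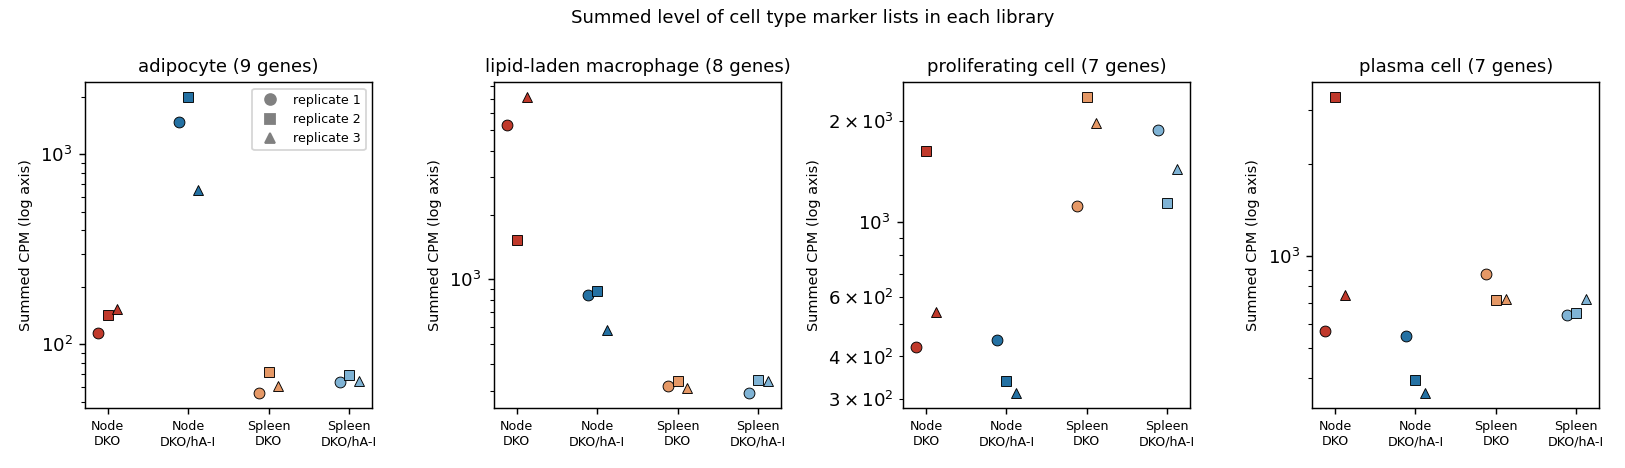
Summed CPM of 4 cell type marker lists in each library, on log axes, with points as replicates by group. Adipocyte markers are high in the DKO/hA-I nodes (647 to 2001 CPM), lipid-laden macrophage markers in the DKO nodes, and DKO node replicate 2 stands apart in proliferation and plasma cell markers.

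Genes that feed or branch from the pathway were read from 5 further lists, also chosen with earlier results of these data known. Their calls in the node are to be read against 6.87% of all genes tested called and 2.92% called lower in DKO. In the node, 4 of 8 genes that supply acetyl-CoA and electrons were called, all lower in DKO. They were Me1 (-4.12 ± 0.57), Acss2 (-2.76 ± 0.30), Acly (-1.89 ± 0.35) and Slc25a1 (-1.64 ± 0.26), which act in the supply of cytosolic acetyl-CoA or NADPH. Of 9 genes of SREBP-1 and its fatty acid targets, 4 were called lower in DKO, Fasn (-4.14 ± 0.54), Elovl6 (-3.25 ± 0.49), Acaca (-3.19 ± 0.44) and Scd1 (-3.15 ± 0.32). These log2 differences exceed those of Acat2 and Hmgcs1, and the levels followed the adipocyte sum in the DKO/hA-I nodes, with Fasn at 4815, 5217 and 1304 CPM and Acly at 1051, 1133 and 415. The per-library adipocyte sums are those given above, and their part was not tested. Lipa, the lysosomal lipase that frees cholesterol from its esters, was the only 1 of 10 sterol transport genes called, higher in DKO (1.85 ± 0.38) with 495, 204 and 666 CPM against 139, 117 and 125. A count of 1 of 10 lies near the share of all genes tested.

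None of 13 genes of the isoprenoid branch (prenylation, dolichol and coenzyme Q) was called in the node, the lowest adjusted p-values being those of Nus1 (0.33 ± 0.12, edgeR adjusted p = 0.142) and Dhdds (0.70 ± 0.29, 0.186), the subunits of dolichol synthase. Likewise none of 13 genes of sterol-regulated degradation in the endoplasmic reticulum was called, with Aup1 (0.38 ± 0.12, edgeR adjusted p = 0.0920) and Ube2g2 (0.36 ± 0.12, 0.112) nearest. At unadjusted p under 0.05 there were 3 of the 13 genes in each list, against 25.1% of all genes tested.

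In the spleen, none of the 28 genes was called between the genotypes in edgeR's quasi-likelihood test, where only 1 of 14009 genes (0.00714%) was called at all. At unadjusted p under 0.05 there were also 0 of the 28, against 4.4% of all genes tested, and DESeq2 called 0. The median log2 fold change, DKO minus DKO/hA-I by the labels, was -0.14 against 0.01 over all genes tested, with 7 genes above 0 and 21 below. Groups did not overlap for 2 of the 28, Hsd17b7 and Mbtps2, against 10.6% of all genes tested. The authors' deposited table calls 0 of the 28 in spleen, among 8 genes called.

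Insig1 measured 41.8, 40.9 and 36.9 CPM in the spleens labelled DKO and 45.3, 38.8 and 47.2 in those labelled DKO/hA-I. The approximate 95% interval of its log2 fold change ran from -0.38 to 0.10. Acat2 stood at 28.3, 29.9 and 32.7 and 36.2, 22.5 and 33 CPM, with an interval of -0.36 to 0.32. For Hmgcs1 (53.4, 40.5 and 47 against 62.8, 46.8 and 59.7 CPM) the interval was -0.57 to 0.02, and for Pmvk -0.40 to 0.14. These intervals do not reach the node's estimates for the same genes, but they leave out the error of those estimates. The edgeR test of the difference between tissues, given below, called none of these genes with the labels as given.

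Several enzymes varied widely among the DKO/hA-I spleens. Idi1 was almost level in the DKO spleens at 31.1, 31.1 and 31.4 CPM but spread over 65.4, 26 and 44.4 in the DKO/hA-I spleens, and Sqle stood at 17.1, 18.4 and 14.8 against 32.6, 14.1 and 24.7. Fdps (40.4, 22.9 and 31.8), Cyp51 (42.6, 26.1 and 41) and Sc4mol (28.8, 14.1 and 18.6), the C4 methyl oxidase, were also highest in DKO/hA-I replicate 1 and lowest in replicate 2. Over the 21 enzymes and their scaffold, replicate 1 was the highest of its group for 15 and replicate 2 the lowest for 17, against 39.9% and 35.3% of all genes tested. Of the 28 genes, 19 spanned a wider ratio of highest to lowest value in the DKO/hA-I spleens and 9 in the DKO spleens, among them Mvk, Ggps1 and Fdft1. This ratio was not compared over all genes tested, so whether the wider spread is particular to the 28 is not known. DKO replicate 2 was the highest DKO spleen for 16 of the 28, against 41.8% of all genes tested. Proliferation markers summed to 1881, 1142 and 1441 CPM in the DKO/hA-I spleens and to 1118, 2347 and 1965 in the DKO spleens. Their part in the enzyme levels was not tested.

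**Figure D4:**
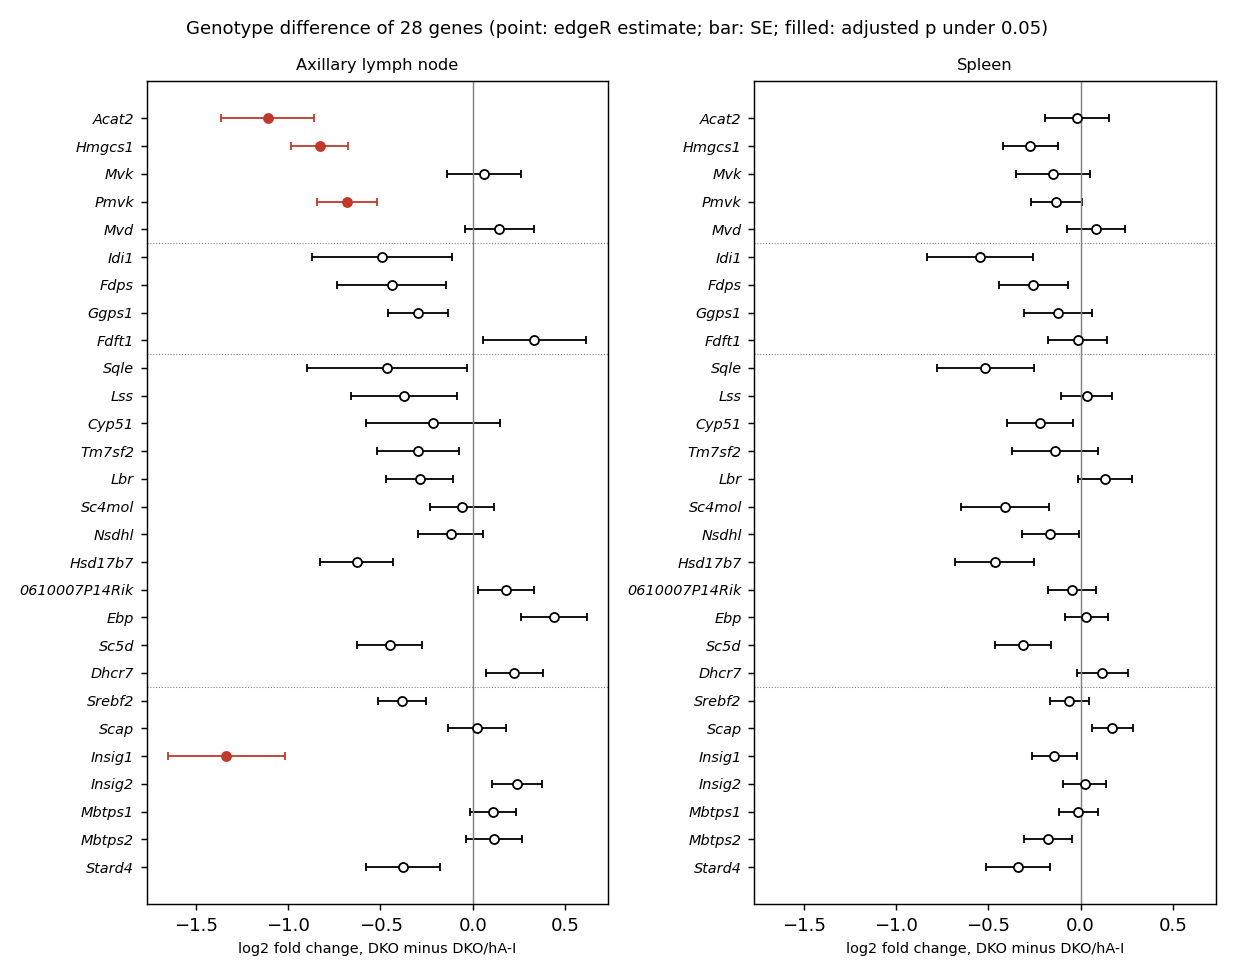
Log2 fold change of the 28 genes, DKO minus DKO/hA-I, in axillary lymph node and in spleen, with points as edgeR estimates, bars of 1 SE and filled red points where the adjusted p is under 0.05. Filled points are Acat2, Hmgcs1, Pmvk and Insig1 in the node, and no point is filled in the spleen.

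Of the further lists, 0 of 53 genes was called in the spleen. Nearest in each were Rce1 (0.23 ± 0.14), Syvn1 (0.32 ± 0.12), Cyb5 (0.18 ± 0.14), Gramd1a (0.29 ± 0.12) and Elovl6 (-0.26 ± 0.26), all at an edgeR adjusted p of 0.929. The enzymes that stood out in the node were level here, Fasn at 156 ± 7.47 CPM in DKO and 147 ± 10.8 in DKO/hA-I spleens (SD, n = 3), and Acly at 251 ± 12.3 and 249 ± 6.17. Adipocyte markers summed to 55.5 to 71.5 CPM over the 6 spleens.

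Whether the genotype difference itself differed between node and spleen was tested in a model of all 12 libraries, taking the labels as given. None of the 28 genes was called in edgeR's quasi-likelihood test, against 3.33% of 14608 genes tested, and 4 of the 28 had an unadjusted p under 0.05, against 17.1% of all genes tested. With the labels as given, the largest differences were those of Insig1 (-1.22 ± 0.36, edgeR adjusted p = 0.0879) and Acat2 (-1.11 ± 0.33, 0.0898), followed by Hmgcs1 (-0.58 ± 0.22, 0.200) and Pmvk (-0.57 ± 0.21, 0.180). Insig1 and Acat2 were called without DKO node replicate 2 (adjusted p = 0.00192 and 0.0156), without DKO/hA-I node replicate 3 (0.0439 and 0.0427), and by DESeq2 (0.0283 and 0.0328). Each of these settings called 2 of the 28, among 1160, 471 and 962 genes in all. Both genes were called in only 2 of 12 fits without 1 library, with adjusted p-values up to 0.218. Neither was called with RLE size factors (0.0892 and 0.0906), without the filter (0.105 and 0.0932) or with the replicate block (0.112 and 0.148). For Idi1, Sqle and Cyp51 the estimates were 0.03 ± 0.51, 0.01 ± 0.57 and -0.02 ± 0.43, with SEs too wide to exclude differences as large as that of Hmgcs1.

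These values and their order depend on the labels. With the spleen genotype labels exchanged, an alternative added after the data were seen, 5.15% of all genes tested and 3 of the 28 were called: -1.49 ± 0.36 for Insig1 (edgeR adjusted p = 0.0352), -1.11 ± 0.22 for Hmgcs1 (0.0176) and -0.82 ± 0.21 for Pmvk (0.0448). Acat2 (-1.14 ± 0.33, edgeR adjusted p = 0.0656) was then not called, and Hsd17b7 also missed the threshold (edgeR adjusted p = 0.0505). The estimates of Idi1 (-1.05 ± 0.51), Sqle (-1.01 ± 0.54) and Cyp51 (-0.45 ± 0.43) moved away from 0 and were not called either.

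Between the organs, 6 of the 28 genes were called in edgeR's quasi-likelihood test of spleen minus node over both genotypes: Sqle, Stard4, Fdps, Lbr and Srebf2 were higher in spleen and Mbtps2 was lower. Over all genes tested 35.4% were called, so the share among the 28 lay below that background. The median log2 fold change was 0.03 against -0.02 over all genes tested. No gene of the 28 had 6 spleen values clear of its 6 node values, against 15.5% of all genes tested. Tissue goes with the deposited table, and whatever else differed between the tables cannot be told apart from it.

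Sqle ran from 5.04 to 15.8 CPM over the nodes and from 14.1 to 32.6 over the spleens, with a log2 fold change of 1.02 ± 0.27 (edgeR adjusted p = 0.0106). Stard4 ran from 14 to 24.7 CPM in nodes and 21.9 to 34.8 in spleens (0.67 ± 0.14, edgeR adjusted p = 0.00176); the highest node lay above the lowest spleen. Lbr ran from 126 to 202 and 199 to 281 CPM (0.50 ± 0.12, edgeR adjusted p = 0.00734). Srebf2 ran from 120.4 to 191 and 189 to 226 CPM (0.42 ± 0.08, edgeR adjusted p = 0.00135), and the DKO nodes lay well under every spleen.

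Mbtps2, the second protease, was the only 1 of the 28 called lower in spleen, at 25.7 to 33.5 CPM in nodes and 21 to 28.1 in spleens (-0.33 ± 0.10, edgeR adjusted p = 0.0194). Mbtps1, the first protease, did not move with it (-0.00 ± 0.08). Fdps ran from 12.2 to 26 CPM in nodes and 22.9 to 40.4 in spleens (0.58 ± 0.19, edgeR adjusted p = 0.0282). Its call was lost without node DKO replicate 1 or 3, node DKO/hA-I replicate 3, spleen DKO replicate 2 or 3, or spleen DKO/hA-I replicate 1 or 3 (adjusted p from 0.0512 to 0.0770), while the other 5 held when any 1 library was left out. Idi1 (0.58 ± 0.26) and Cyp51 (0.51 ± 0.22) had estimates near that of Fdps and were not called (edgeR adjusted p = 0.0948 and 0.0855), but were called without DKO node replicate 2 (0.00259 and 0.000401). The 7 proliferation genes were all called higher in spleen, against 2611 of 14608 genes tested. Their sums were 1118 to 2347 CPM in spleens and 312 to 1622 in nodes, and their part in these differences was not tested.

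Different genes passed the threshold within each genotype, which by itself does not show that the organ difference depends on genotype. In DKO, 22.8% of genes tested were called, and 4 of the 28: Lbr (0.72 ± 0.18), Srebf2 (0.59 ± 0.12) and Stard4 (0.70 ± 0.19) higher in spleen and Mbtps2 (-0.47 ± 0.14) lower. In DKO/hA-I, 25.7% of genes tested were called, and 3 of the 28: Stard4 higher in spleen (0.64 ± 0.19), and Insig1 (-0.99 ± 0.25, edgeR adjusted p = 0.0107) and Acat2 (-0.73 ± 0.23, 0.0337) lower. Insig1 and Acat2 stood at similar levels in DKO nodes (34.5 ± 14.5 and 23.4 ± 6.13 CPM), DKO spleens (39.9 ± 2.62 and 30.3 ± 2.25) and DKO/hA-I spleens (43.8 ± 4.39 and 30.5 ± 7.16), and the DKO/hA-I nodes (86.9 ± 23.2 and 50.7 ± 13.5; all SD, n = 3) were the high group. Sqle had nearly the same estimate in both genotypes, 1.01 ± 0.39 and 1.02 ± 0.37, and passed the threshold only when both were combined. The test that these organ differences differ between genotypes is the one given above, in which no gene of the 28 was called with the labels as given. With the spleen labels exchanged, 7 of the 28 were called within DKO against 20.4% of all genes tested, and 6 within DKO/hA-I against 32%. Insig1 (-1.12 ± 0.25) and Acat2 (-0.74 ± 0.23) were among the latter and lower in spleen as before. Lbr, Srebf2 and Stard4 were still called within DKO, and Mbtps2 was not (-0.30 ± 0.14, edgeR adjusted p = 0.166). Within DKO/hA-I, Stard4 lost its call (0.31 ± 0.19, edgeR adjusted p = 0.239). Hmgcs1 was called with opposite signs, 0.54 ± 0.16 within DKO and -0.57 ± 0.16 within DKO/hA-I.

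**Figure D5:**
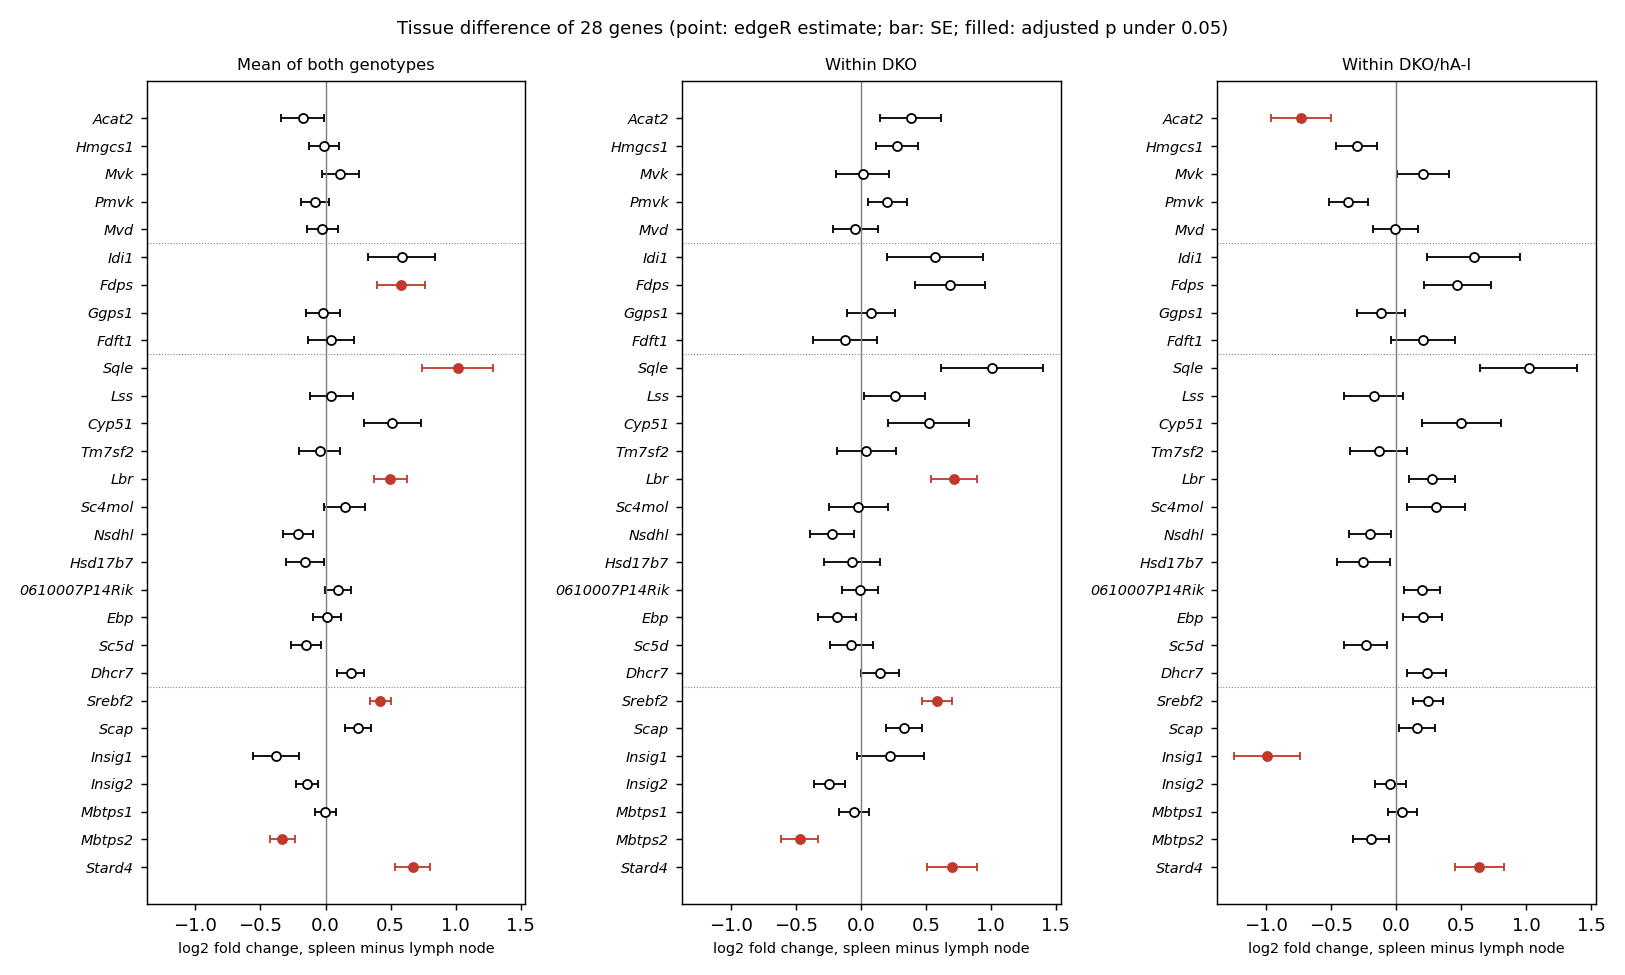
Log2 fold change of the 28 genes, spleen minus axillary lymph node, for the mean of both genotypes and within each, with points as edgeR estimates, bars of 1 SE and filled red points where the adjusted p is under 0.05. With the labels as given, Stard4 is filled in all 3 panels, and Insig1 and Acat2 are filled in DKO/hA-I only.

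In the further lists, to be read against the 35.4% of all genes called, the organ comparison called 7 of 9 SREBP-1 and fatty acid genes, with Scd1 (-2.47 ± 0.18), Elovl6 (-2.62 ± 0.30), Fasn (-2.57 ± 0.28) and Acaca (-2.09 ± 0.23) lower in spleen, and 4 of 8 acetyl-CoA and electron supply genes, Me1 (-2.69 ± 0.32), Acss2 (-0.85 ± 0.19), Acly (-0.84 ± 0.19) and Slc25a1 (-0.84 ± 0.17), all lower in spleen. For Acss2 and Acly the direction came from the DKO/hA-I nodes and was the opposite within DKO, where neither was called. Of 10 sterol transport and esterification genes 6 were called. Soat2, an acyltransferase that makes cholesterol esters, was higher in spleen (1.34 ± 0.18), and the lysosomal carrier Npc2 (-0.91 ± 0.14) and the sterol transporters Gramd1a (-0.40 ± 0.11) and Gramd1b (-0.50 ± 0.14), which take sterol from the plasma membrane to the endoplasmic reticulum, were lower. In the isoprenoid branch 2 of 13 were called, a share below that of all genes, Nus1 lower (-0.33 ± 0.10) and the farnesyltransferase subunit Fntb higher in spleen (0.44 ± 0.14). In the degradation list, Erlin2 was called higher in spleen (0.43 ± 0.08).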

How the data were processed

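Poly(A) RNA of spleen and axillary lymph node was sequenced, per the labels, on the Genome Analyzer IIx. The submitters' processing notes name Trimmomatic, Bowtie, TopHat, Cuffdiff and the build GRCm38 (mm10). The sources used here give no versions, and neither the gene models nor the program and strand setting that produced the counts. The deposited tables, 1 per tissue, hold raw read counts per gene and library, per the file headers, and the q-values and calls of the authors' own genotype comparison, from which only q-values and calls were used. All libraries were assigned to groups from the labels' titles.

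The test was edgeR's (version 4.0.16, with limma 3.58.1, under R 4.3.3). Genes passing filterByExpr (minimum count 10, minimum total 15) were kept, libraries scaled with TMM, and a robust quasi-likelihood fit tested 2-sided, with Benjamini-Hochberg adjustment over all genes tested and calls at an adjusted p under 0.05. The genotype contrast used the 6 libraries of 1 tissue. The tissue contrast and the difference of the genotype contrasts used a 4-group model of all 12 libraries. Errors of log2 fold changes are SEs and those of CPM are SDs. RPKM was computed from counts and the exon-union length of GENCODE for GRCm38, which held all 28 genes. Total counts per library bound the precision, and reads carry no molecular identifiers. The scripts were tested on simulated data. Alternatives were RLE size factors, no filter, replicate and sample code blocks, a 12-library fit, DESeq2 1.42.0, each library left out, each genotype alone and, added after the data were seen, the spleen genotype labels exchanged.

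All 28 genes are named, and from each further pathway list up to 4 called genes of lowest adjusted p, or up to 2 as values where none was called. Marker lists cover adipocytes, lipid-laden and other macrophages, erythroid, B, T, plasma and proliferating cells, node stroma and vessels, and spleen. The genes and lists were chosen with earlier results of these data known. Some other genes of the pathway and its lists are not reported here.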

Additional observations from a re-analysis of the deposited data

Results flagged for a closer look

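For 9 of the 53 genes of the further lists, none of them among the 28, the genotype difference in the node differed from that in the spleen by the test of that difference itself (edgeR quasi-likelihood, all 12 libraries, labels as given). Of all genes tested, 3.33% were called by this test. The log2 difference of differences was -4.24 ± 0.55 for Fasn (adjusted p = 0.00292), -3.88 ± 0.63 for Me1 (0.00749), -3.15 ± 0.46 for Acaca (0.00427), -3.08 ± 0.36 for Scd1 (0.00215), -3.01 ± 0.59 for Elovl6 (0.0180) and -3.01 ± 0.39 for Acss2 (0.00276). It was -1.92 ± 0.37 for Acly (0.0171) and -1.46 ± 0.34 for Slc25a1 (0.0366), and 1.90 ± 0.42 for Lipa (0.0283), the only 1 with a positive sign. All 9 were also called, with the same sign, with the spleen genotype labels exchanged. None of the 9 was called between the genotypes in the spleen, so that exchange could alter little. Exchanging the node labels instead would turn these signs. Fasn, for example, stood at 143, 253 and 242 CPM in nodes of DKO mice, 4815, 5217 and 1304 in those of DKO/hA-I mice, 158, 163 and 148 in DKO spleens and 136, 147 and 158 in DKO/hA-I spleens. The adipocyte marker sum was 1477, 2001 and 647 CPM in the DKO/hA-I nodes and at most 154 CPM in every other group, and its part in these differences was not tested.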

How the results depend on the processing

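In the node, 962 genes and 4 of the 28 pathway genes were called. With the replicate number as a block, 438 genes and 2 of the 28 (Acat2 and Insig1) were called, with 12 libraries in 1 fit 2253 genes and 5 of the 28 (Srebf2 added), and with DESeq2 1982. Leaving out 1 node library gave 115 to 2245 genes and 0 to 9 of the 28. In the spleen 1 gene was called, 515 with the sample code as a block and 1 to 167 when 1 library was left out, and in none of these fits any of the 28. The organ comparison called 5174 genes, 3325 within DKO only, and 6 of the 28, 3 within DKO/hA-I only. Within DKO only, Acly (0.12), Acss2 (0.66) and Gramd1a (0.010) changed sign and were not called. The difference of genotype differences was called for 487 genes, 299 with the replicate block, 962 with DESeq2, 753 with the spleen genotype labels exchanged and 179 to 1160 when 1 library was left out, and for 0 of the 28, 2 with DESeq2, 3 with those labels exchanged and 0 to 2 when 1 library was left out. The cause of these shifts was not tested. Insig1 missed the threshold with RLE size factors (adjusted p = 0.0524) and without the filter (0.0541).

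Same-numbered libraries did not deviate together (correlation of deviations from group means, node -0.14, 0.03 and -0.03, spleen -0.001, 0.11 and -0.10). Differently numbered libraries ran from -0.09 to 0.17 in the node and from -0.13 to 0.18 in the spleen. These values give no sign that the number pairs the libraries, and calls lost under the block say nothing of a weaker effect. At n = 3 libraries per group and 5911835 to 11950825 counts per library, folds such as that of Hsd17b7 (1.55) were not called.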

Other observations

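Other marker lists were read in the same libraries, as summed CPM of replicates 1, 2 and 3. Calls in the node are to be read against 6.87% of all genes tested called and 2.92% called lower in DKO. T cell markers stood at 693, 423 and 632 in DKO nodes and 828, 783 and 869 in DKO/hA-I nodes, and B cell markers at 2968, 2183 and 1889.5 and 3146, 3392 and 3314, with 0 of 6 genes called in either list. General macrophage markers stood at 1251, 913 and 1740.3 and 1083, 919 and 669.9, with 2 of 7 genes called higher and 1 lower in DKO nodes. Genes of node stroma and vessels stood at 454, 627 and 528 and 761, 663 and 847, with 2 of 7 called lower in DKO. Erythroid genes summed to 5.47 to 90.0 CPM over the nodes and 2923 to 19286 over the spleens, and the spleen list to 375 to 1194 and 2365 to 2718.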
